A study of Mus musculus with 4 samples.

Results

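The thick filament of the sarcomere is the myosin lattice of striated muscle, and 10 genes that encode its parts or build it were followed here in chromatin accessibility data: Myh6, Myh7, Myl2, Myl3, Myl4, Myl7, Mybpc3, Ttn, Myom1 and Unc45b. They are grouped by their role in the filament and are 10 of the 21938 protein-coding genes on the nuclear chromosomes in GENCODE M21. A peak was assigned to a gene when it lay in the gene body or within 10 kb of one of the gene's transcription start sites (TSSs). By that rule the 10 genes held 26 of the 25851 differential peaks. ATAC-seq, which maps open chromatin through the cuts that Tn5 transposase makes in DNA free of nucleosomes, was run on E9.5 (embryonic day 9.5) mouse hearts that were wild type (WT) or homozygous null for Smyd1 (Smyd1-KO), a histone methyltransferase gene of heart and skeletal muscle. There were 2 libraries per genotype, each made from 40000 viable cells of 4 pooled hearts. The comparison asked which regions were more or less open in hearts that lacked SMYD1.

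Several features of the material bear on every value. The null allele was not limited to one cell type, and the dissociated heart holds cardiomyocytes together with endocardial, epicardial and blood cells, so a more open region in cardiomyocytes and a larger share of cardiomyocytes among the nuclei cannot be told apart. The deposited lists hold only peaks that differed at least 2-fold between the genotypes, 25745 of them higher in Smyd1-KO hearts (called gained) and 106 higher in WT hearts (called lost). The lists came from the combined libraries of each genotype. No replicate error and no test between genotypes could therefore be computed. The labels state 100000000 reads for every sample, and the depth reached by each library is not in the lists. The value of each peak, called its score, is the authors' tag level in its 149-bp interval, in the genotype in which the peak was higher. It is recorded in steps of 0.5 among the gained peaks, so it is not a whole count of tags, and its scaling is not given in the sources used here. Among the gained peaks the score ran from 24.5 to 18591, with a median of 180.5 and quartiles of 81 and 410. Because 99.6% of all differential peaks were gained, a gained direction at any one gene is the direction of nearly the whole list.

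In a cardiac sarcomere the thick filament is a bundle of myosin molecules, each with a pair of heavy chains that hydrolyse ATP and pull on actin, and with essential and regulatory light chains that stiffen and tune the lever arm. Myosin-binding protein C sits on the filament as a brake, titin runs from the Z-disc to the M-band as a spring and ruler, and myomesin crosslinks the filaments at the M-band. UNC45B is a chaperone that folds the myosin head, and SMYD1 is known from striated muscle as a partner of that chaperone system as well as a histone methyltransferase. Atrial and ventricular muscle use different light chains, and the heavy chain genes Myh6 and Myh7 lie head to tail on one chromosome, with Myh7 upstream.

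All 10 genes held at least 1 gained peak, against 62.6% of all protein-coding genes. At least 2 gained peaks were found at 9 of the 10, against 29.4% of all protein-coding genes, and at least 3 at 6 of the 10, against 12.0%. A gained peak lay within 3 kb of an own TSS at 10 of 10 members, against 51.2% of all protein-coding genes, and within 1 kb of one likewise at 10 of 10, against 48.1%. In 7 of the 10 a gained peak covered an own TSS, against 27.8%. No lost peak was found at any member, where 0.155% of protein-coding genes had one, a background so low that the 0 carries little information. The nearest lost peak to any member was 1998375 bp from a Myom1 TSS. These shares are descriptions, and whether the members' share differs from that of other genes of like expression or length was not tested. Counted per length of searched sequence, the members held 0.372 gained peaks per 10 kb, where the searched sequence of all protein-coding genes held 0.185. In both values a peak assigned to more than 1 gene was counted for each, as the Myh6 promoter peak was for Myh7.

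The 26 peaks were spread over the genes as 5 at Myh7, 3 each at Myl2, Myl3, Myl4, Mybpc3 and Ttn, 2 each at Myh6, Myl7 and Myom1, and 1 at Unc45b, the peak over the Myh6 promoter being counted for Myh7 as well. By place in the assigned gene, 7 peaks overlapped a 5′ UTR, 2 a coding exon and 5 an intron, and 12 lay outside the gene body. Their scores ran from 58.5 at a coding exon of Ttn to 700.5 over a Myl4 TSS, with a median of 281.5. Of the 26 peaks, 24 scored above the median of the gained list, 6 above its upper quartile and 1 above its 90th percentile of 685.

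**Figure D1:**
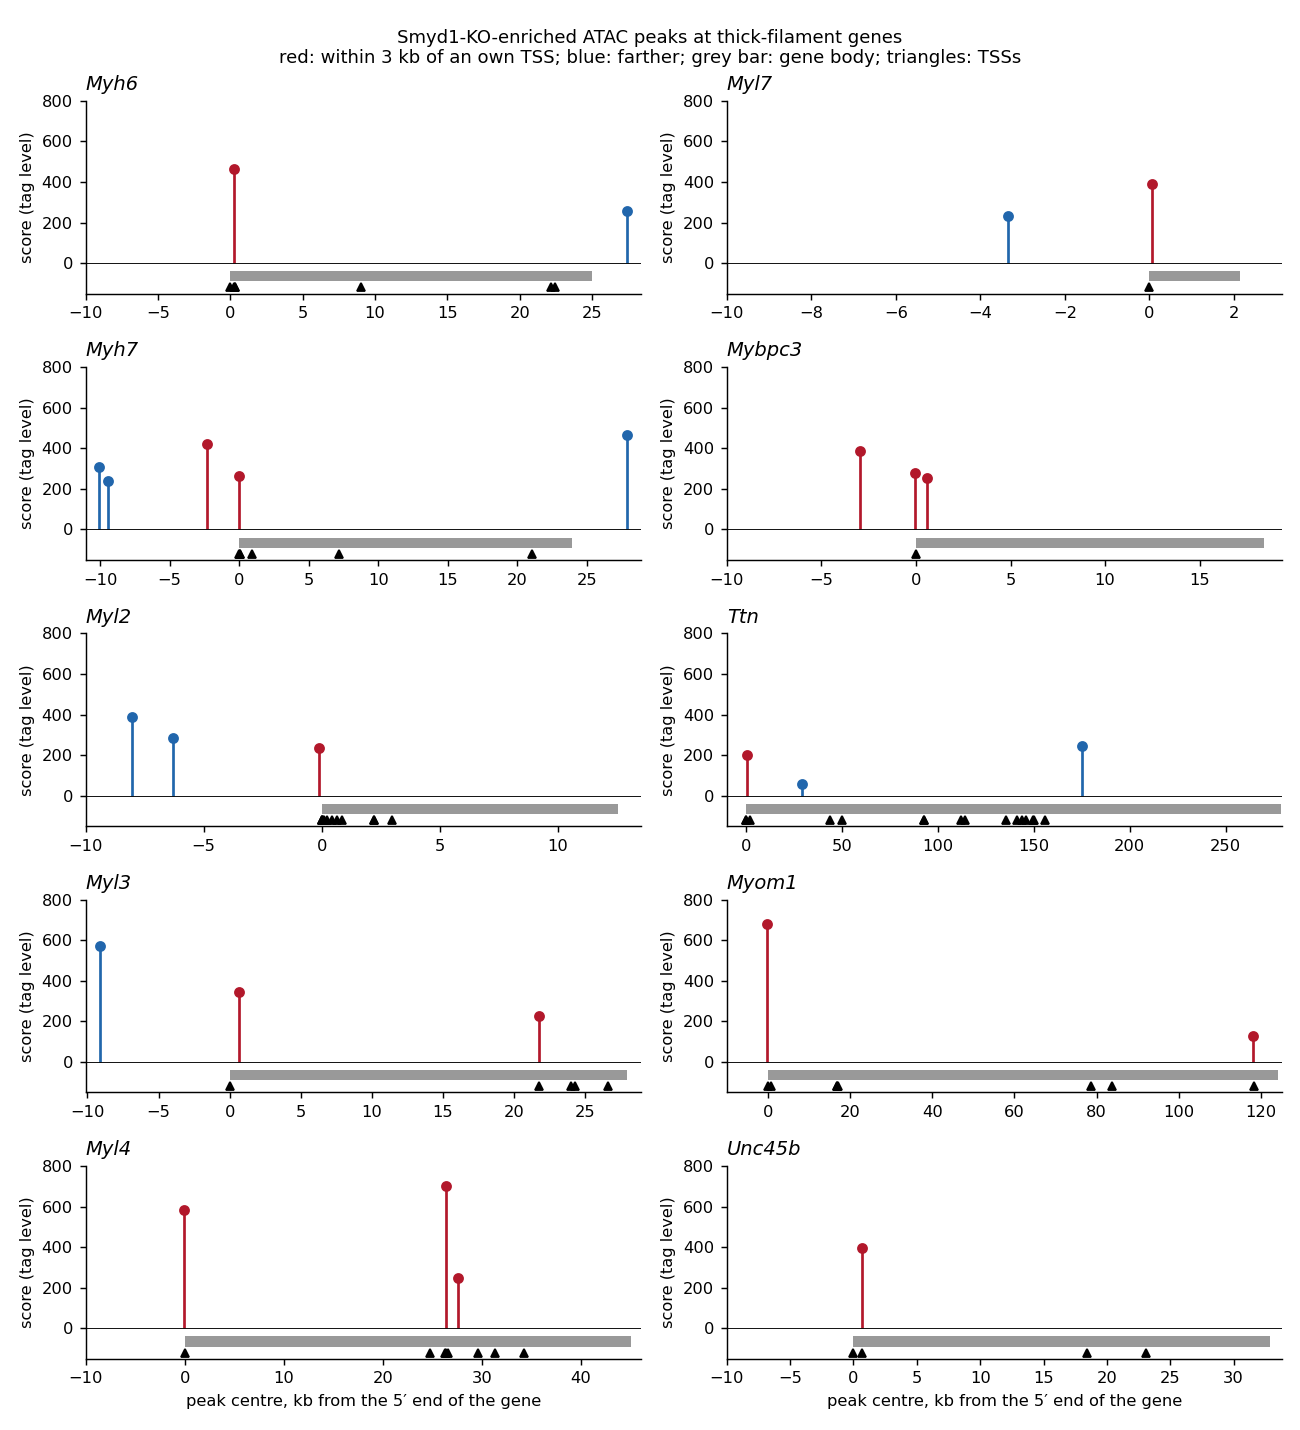
Score of each gained peak (y axis, pooled tag level) against the distance of its centre from the 5′ end of the gene in kb (x axis), for the 10 genes, drawn in the direction of transcription. Red marks peaks within 3 kb of an own TSS and blue those farther away. The grey bar is the gene body and triangles are TSSs annotated in GENCODE. The 2 peaks about 10 kb upstream of Myh7 and the 2 peaks upstream of Myl2 stand apart from those TSSs. The 2 at Myl2 lay 127 and 1384 bp from RefSeq starts, which are not drawn. Ttn has 3 peaks over its 278568 bp.

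The sequences shown here are those of the peaks on which the description below turns: the 3 peaks upstream of Myh7, the promoter peaks of Mybpc3, Myl3 and Myh6, and, for contrast, the CpG-rich peak at the upstream start of Myl4. Each is written 5′ to 3′ on the strand of the gene, from the RefSeq GRCm38.p6 (mm10) assembly, in lower case. Capitals mark every match to 9 searched strings or sites: the MEF2 site and the CArG box (the binding sites of MEF2 factors and of SRF), AGATAA for GATA factors, CATTCC (the MCAT string of TEAD factors), TNAAGTG for NKX2-5, AGGTGTGA for T-box factors, GGGCGG for SP1, the E-box CAGCTG, and TATAAA. Both strands were searched, so a match may appear as its reverse complement. Bases in an annotated UTR of any protein-coding transcript were left out, which shortens the promoter peaks. The Myl4 upstream start peak is printed whole because the Cdc27 exon it overlaps belongs to a noncoding transcript.
Myh7 peak 2266 bp upstream, chr14:54996892-54997040, minus strand: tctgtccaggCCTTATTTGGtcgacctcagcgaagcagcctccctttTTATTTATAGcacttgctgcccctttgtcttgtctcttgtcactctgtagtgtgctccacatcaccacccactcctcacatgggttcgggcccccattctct
Myh7 peak 9383 bp upstream, chr14:55004009-55004157, minus strand: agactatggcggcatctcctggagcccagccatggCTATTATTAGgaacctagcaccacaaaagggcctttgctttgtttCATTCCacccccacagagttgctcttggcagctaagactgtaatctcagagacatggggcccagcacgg
Myh7 peak 9988 bp upstream, chr14:55004614-55004762, minus strand: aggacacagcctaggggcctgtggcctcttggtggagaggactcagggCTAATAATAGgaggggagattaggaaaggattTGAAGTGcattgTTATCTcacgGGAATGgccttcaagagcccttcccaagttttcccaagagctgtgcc
Mybpc3 promoter peak, chr2:91118004-91118143, plus strand: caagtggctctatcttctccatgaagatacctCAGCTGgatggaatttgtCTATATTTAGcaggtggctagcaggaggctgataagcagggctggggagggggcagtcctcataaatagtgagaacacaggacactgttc
Myl3 promoter peak, chr9:110763524-110763645, plus strand: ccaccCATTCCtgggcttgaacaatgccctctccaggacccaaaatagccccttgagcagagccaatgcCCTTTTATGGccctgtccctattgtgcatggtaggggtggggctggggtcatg
Myh6 promoter peak, chr14:54966642-54966779, minus strand: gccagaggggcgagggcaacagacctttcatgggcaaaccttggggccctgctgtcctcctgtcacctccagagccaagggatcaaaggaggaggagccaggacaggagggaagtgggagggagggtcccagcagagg
Myl4 upstream start peak, chr11:104550491-104550639, plus strand: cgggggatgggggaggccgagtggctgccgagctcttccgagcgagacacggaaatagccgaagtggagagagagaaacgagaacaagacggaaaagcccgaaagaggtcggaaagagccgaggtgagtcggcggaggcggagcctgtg
In the first of these the capitals are, in order, a CArG box and a MEF2 site, and the MEF2 match overlaps a match to TATAAA on the other strand. The second holds a MEF2 site and CATTCC. The third holds a MEF2 site, TGAAGTG, the reverse complement of AGATAA and the reverse complement of CATTCC. The Mybpc3 peak holds an E-box and a MEF2 site, the Myl3 peak CATTCC and a CArG box, and the Myh6 and Myl4 peaks none of the strings.

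Myh7, which encodes the slow β heavy chain of embryonic ventricle, had the most gained peaks of the 10 genes. The gene (ENSMUSG00000053093.16, chr14:54970684-54994626, minus strand) had 5, where 97.5% of all protein-coding genes had fewer. The peak over its TSS and 5′ UTR (chr14:54994555-54994703) scored 264, above 60.9% of the gained list. It was above 29.5% of the gained peaks within 3 kb of a protein-coding TSS. The peak 2266 bp upstream (chr14:54996892-54997040) scored 422.5 and was the strongest of those nearest to Myh7. The peaks 9383 bp and 9988 bp upstream scored 240.5 and 309. All 3 upstream peaks held a MEF2 site, at bases 48 to 57, 36 to 45 and 49 to 58 of the 149, so that 3 of the 4 MEF2 matches over all member peaks were at this one gene. The most distant lay just inside the 10-kb limit, and the next gained peak outward was 20556 bp from a Myh7 TSS, with a score of 741.5 and Ngdn as its nearest gene.

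Myh6, which encodes the fast α heavy chain of atrial and adult mouse ventricular muscle, had a single promoter peak, which scored above the peak over the Myh7 TSS. The gene (ENSMUSG00000040752.16, chr14:54941921-54966927, minus strand) starts 3756 bp downstream of the last base of Myh7. The promoter peak (chr14:54966631-54966779) scored 464, against 264 at the Myh7 TSS and 422.5 at the peak 2266 bp upstream of Myh7. The Myh6 peak covered the TSS of Myh6-201 and part of its 5′ UTR, and lay 24 bp from the RefSeq start. By rule it was also assigned to Myh7, since a retained-intron transcript, Myh7-206, starts 6749 bp away. It lay 1899 bp from a TSS of Mhrt, the antisense RNA of this locus, and ATAC-seq signal has no strand. A second peak with a score of 256.5 lay past the 3′ end of Myh6, 4890 bp from the internal start of Myh6-207, and its nearest protein-coding TSS was that of Cmtm5 at 1692 bp. Only the promoter peak was therefore nearest to a Myh6 start.

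Each light chain gene had a gained peak at or next to an own TSS. Myl7, the atrial regulatory light chain gene (ENSMUSG00000020469.8, chr11:5896637-5898782, minus strand), is the shortest member at 2146 bp, with 1 transcript. Its gained peak over the TSS and 5′ UTR (chr11:5898654-5898802) scored 392. The other peak assigned to it, 3279 bp upstream, scored 234.

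Myl2, the ventricular regulatory light chain gene (ENSMUSG00000013936.12, chr5:122100951-122113472, plus strand), had a weaker peak at its GENCODE TSS than upstream of it. The peak at that TSS (chr5:122100750-122100898) ended 53 bp before it, scored 235.5 and lay 7561 bp from the nearest RefSeq start. The peaks 6230 bp and 7952 bp upstream scored 284 and 386.5. RefSeq gives starts for Myl2 only at positions 122092724 and 122093189, and none at the GENCODE TSS. The peak with 386.5 lay 127 bp and the peak with 284 lay 1384 bp from the nearer of them. By RefSeq starts the strongest of these peaks was thus the one closest to a start. Another gained peak lay just outside the 10-kb limit, at 11788 bp, with a score of 237 and Myl2 as its nearest gene, so the upstream side of this gene held gained peaks on both sides of the limit.

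Myl3, the ventricular essential light chain gene (ENSMUSG00000059741.13, chr9:110741861-110769798, plus strand), had its weakest gained peak at the start that RefSeq gives. That peak (chr9:110763524-110763672) covered the TSS of Myl3-201 and lay 6 bp from the RefSeq start, scored 228, and held no CpG. A peak in an intron of Myl3 (chr9:110742423-110742571) scored 345.5 and lay 148 bp from a TSS of Pth1r, the parathyroid hormone receptor gene, whose 5′ UTR it overlapped. The strongest, with a score of 572.5, lay 9062 bp upstream of Myl3-205 in an intron of Pth1r. The intronic peak near Pth1r held 5 matches to GGGCGG and the more distant one 3.

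Myl4, the atrial and embryonic essential light chain gene (ENSMUSG00000061086.12, chr11:104550663-104595753, plus strand), had the strongest peak of the 10 genes. That peak (chr11:104576953-104577101) covered the TSS of Myl4-203 and a 5′ UTR, scored 700.5 and ranked above 90.5% of the gained list. It ranked above 81.3% of the gained peaks within 3 kb of a protein-coding TSS. The peak 24 bp from the TSS of Myl4-201, the upstream start and the one RefSeq gives, scored 585.5 and covered a TSS of Cdc27, a subunit gene of the anaphase-promoting complex. An intronic peak 890 bp from Myl4-202 scored 246 and held an E-box and the reverse complement of CATTCC. The 2 strong Myl4 peaks thus differed in their neighbours, since the one at 700.5 had no other protein-coding gene's TSS nearer than that of Myl4.

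Mybpc3, the cardiac myosin-binding protein C gene (ENSMUSG00000002100.15, chr2:91118144-91136516, plus strand), had 3 gained peaks within 3 kb of its only TSS. The peak over the TSS and 5′ UTR (chr2:91118004-91118152) scored 279, with a MEF2 site and an E-box in the bases before the start. The intronic peak 526 bp inside the gene (chr2:91118670-91118818) scored 254 and held the reverse complement of AGATAA. Neither held a CpG. The third, 2857 bp upstream, scored 387 and lay on a coding exon of Spi1, the gene of the myeloid factor PU.1, 18359 bp from the TSS of that gene. The highest score at this gene was thus the one in the neighbouring gene's exon.

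Ttn, the titin gene (ENSMUSG00000051747.14, chr2:76703980-76982547, minus strand), had as many gained peaks as the median gene of its length class. Its 3 peaks amount to 0.104 per 10 kb, and among the 998 protein-coding genes of at least 200 kb the median was also 3, with 45.8% having fewer. The peak nearest the start (chr2:76981796-76981944) lay in an intron, 511 bp from the TSS, and scored 199. A peak on a coding exon scored 58.5, the lowest of the 26, with only 13.9% of the gained list lower. The third, in an intron 18974 bp from the nearest annotated start, scored 245.5. The highest score within 3 kb of a TSS, 199, was also the lowest such value among the members, and 13.3% of the protein-coding genes with such a peak had a lower one.

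Myom1, the myomesin gene of the M-band (ENSMUSG00000024049.15, chr17:71002633-71126856, plus strand), had no gained peak at the start that RefSeq gives. Its peak with a score of 680.5 (chr17:71002418-71002566) lay 67 bp from the TSS of Myom1-209, but 16991 bp from the RefSeq start. The same peak covered a TSS of Myl12a, a non-muscle regulatory light chain gene, and lay 210 bp from one of Myl12b. The other peak, on a coding exon near the 3′ end, scored 126.5 and lay 36 bp from the start of a processed transcript, Myom1-208. With RefSeq starts in place of GENCODE ones, 9 of the 10 members had a gained peak within 3 kb of a start, and Myom1 was the one that did not.

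Unc45b, the gene of the myosin chaperone (ENSMUSG00000018845.14, chr11:82910550-82943403, plus strand), had 1 gained peak. It covered the TSS of Unc45b-201 and Unc45b-205 (chr11:82911154-82911302), lay in the 5′ UTR, scored 395 and held no CpG. Its next gained peak outward, at 11952 bp, scored 53. Unc45b was thus the member with the fewest peaks, with a promoter score above 73.7% of the gained list.

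**Figure D2:**
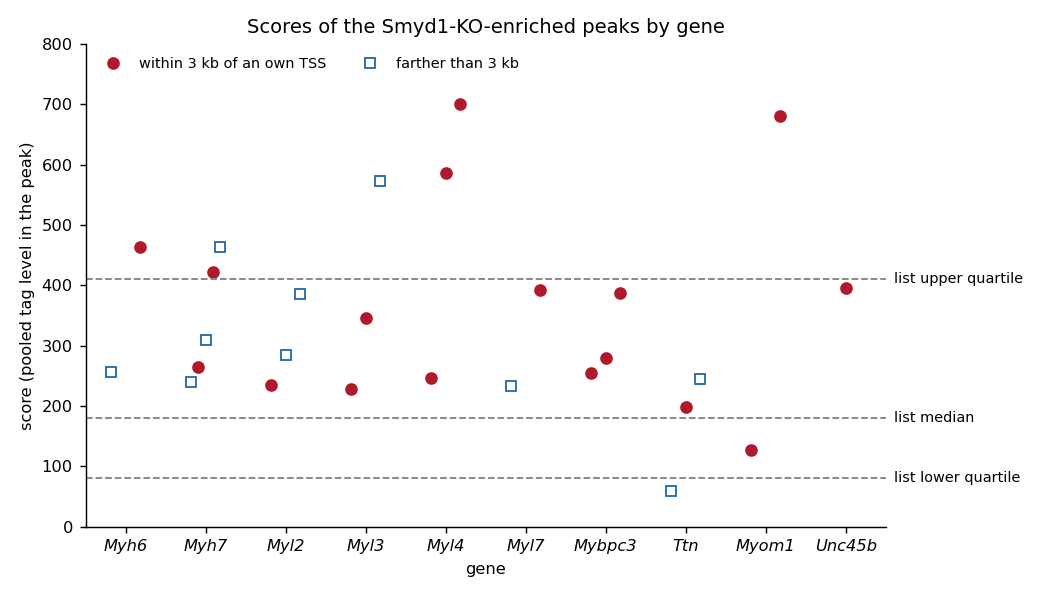
Scores of the gained peaks (y axis, pooled tag level in the peak) for each of the 10 genes (x axis), with red circles for peaks within 3 kb of an own TSS, open blue squares for peaks farther away, and dashed lines at the quartiles and median of all 25745 gained peaks. Most points lie between 180.5 and 410, the list's median and upper quartile, and the 464 peak at the Myh6 promoter appears in both the Myh6 and the Myh7 columns.

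Peak scores depend on distance from genes across the whole list, so the members' peaks were set beside list peaks of the same class. Within 3 kb of any protein-coding TSS lay 12520 gained peaks with a median score of 395, and the 17 member peaks within 3 kb of an own TSS had a median of 345.5, of which 11 were below 395 and 2 above the class's upper quartile of 614.5. Another 2 member peaks, the one near Cmtm5 and the one 3279 bp upstream of Myl7, were within 3 kb of another gene's TSS only, and with them the median of the 19 was 279. Beyond 3 kb of any such TSS lay 13225 gained peaks with a median of 89.5, and 7 member peaks with a median of 284, of which 6 were above the class's upper quartile of 151. The 6 distal peaks are the 2 farthest at Myh7, the 2 upstream of Myl2, the Myl3 peak inside Pth1r and the intronic Ttn peak at 245.5. The 2 upstream of Myl2 are distal by GENCODE starts only, since they lay 127 and 1384 bp from the nearer of the RefSeq starts of Myl2, at 122092724 and 122093189. Per gene, the highest score within 3 kb of a TSS had a median of 393.5 over the members and of 460.5 over the 11236 protein-coding genes with such a peak, whose quartiles were 292 and 693.

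Most of the members' promoter peaks had less GC and fewer CpGs than the median of their class. Gained peaks within 3 kb of a protein-coding TSS had a median GC content of 65.8% and a median CpG ratio (the CpGs seen over those that the C and G content would give by chance) of 0.770. Of the 17 member peaks within 3 kb of an own TSS, 16 were below the median GC content and 14 below the median CpG ratio, and 13 were below the lower quartile of the CpG ratio, 0.540. The medians of the 17 were 59.1% and 0.311. The string GGGCGG was present in 50.4% of the class and in 1 of the 17 peaks. Beyond 3 kb the order was the other way, with the string in 2 of the 7 member peaks that far from any protein-coding TSS against 8.92% of such peaks in the list.

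The CpG-rich peaks among the 26 lay mainly at other genes' starts. In 5 peaks the nearest protein-coding TSS was that of another gene, among them Cdc27, Pth1r, Myl12a and Cmtm5. Their median CpG ratio was 1.06, and the values at these genes were 1.20 at Cdc27, 1.06 at Pth1r, 0.745 at Myl12a and 0.0895 near Cmtm5. In the other 21 peaks, nearest to a TSS of a member, the median CpG ratio was 0.207, the highest was 0.796 at the Spi1 exon upstream of Mybpc3, and 4 peaks held no CpG. Scores did not separate in the same way, since the 5 peaks scored from 234 to 680.5 and the 21 from 58.5 to 700.5. With only the 21 counted, every member still had at least 1 gained peak within 3 kb of an own TSS, although the one at Myom1 was the weak exonic peak at 126.5.

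**Figure D3:**
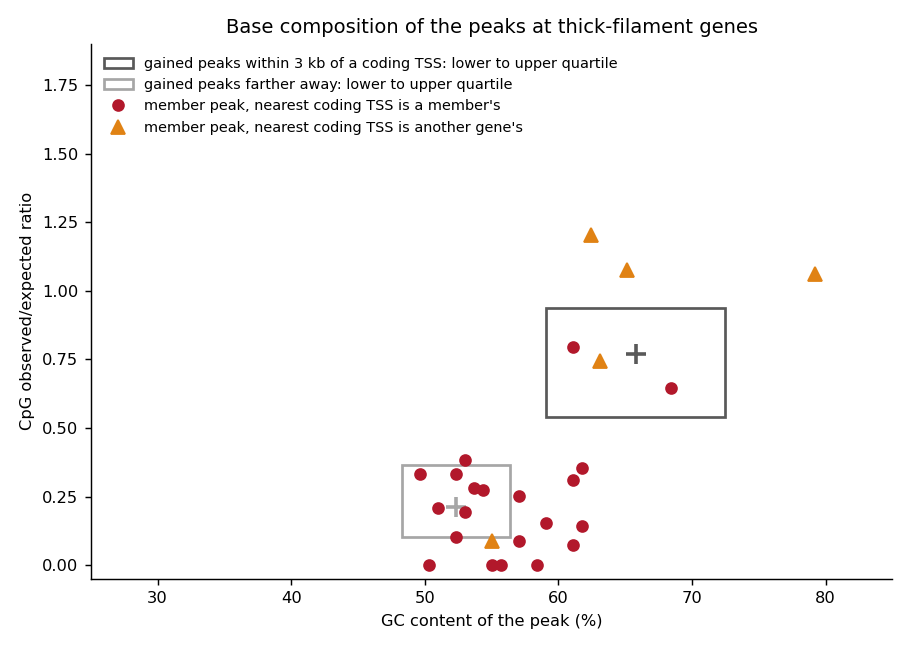
CpG observed over expected ratio (y axis) against GC content in % (x axis) of the 26 gained peaks, with circles for peaks whose nearest protein-coding TSS is a member's and triangles for those nearest to another gene; boxes span the lower to upper quartiles of gained peaks within 3 kb of a protein-coding TSS (dark) and farther away (light), and crosses mark their medians. Most circles lie under a CpG ratio of 0.540, the lower edge of the dark box, and 4 of the 5 triangles lie above it.

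Matches to muscle sequence strings were counted over all 26 peaks as a description of their letters. A MEF2 site was present in 4 of the 26 peaks, or 15.4%, against 1.76% of the gained list, and 3 of the 4 were at Myh7. A CArG box was present in 2 peaks, or 7.69%, against 0.897%, one upstream of Myh7 and one at the Myl3 promoter. CATTCC was in 5 peaks, or 19.2%, against 10.6%, and the E-box in 5, or 19.2%, against 12.2%. GGGCGG was in 4 peaks, or 15.4%, against 29.1%. AGATAA was in 2 peaks, or 7.69%, against 8.87%, TNAAGTG in 2 against 6.76%, and AGGTGTGA in 0 against 0.435%. TATAAA was in 2 peaks against 2.69%, at Myh7 and upstream of Myl2. Such counts rest on few peaks and on exact letters, and no binding was measured.

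The wider thick-filament list had a lower share of genes with a gained peak than the 10 members. Of 22 other thick-filament, M-band and myosin assembly genes, 12 had a gained peak and 11 had one within 3 kb of an own TSS, near or below the shares of all protein-coding genes. The 10 without a gained peak were the skeletal heavy chains Myh1, Myh2, Myh4 and Myh8, the binding protein genes Mybpc1, Mybpc2, Mybph and Mybphl, the myomesin gene Myom2 and the ubiquitin ligase gene Trim63. The highest promoter scores in this list were at Mylpf, a fast skeletal regulatory light chain gene, with 878.5, at Unc45a, the general form of the chaperone, with 725.5, and at Hsp90aa1, its HSP90 partner, with 669.5. A gene outside the lists may still be open in both genotypes, because a region that differed by less than 2-fold is in neither list.

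Among 9 non-muscle and smooth muscle myosin genes, all 9 had a gained peak and 7 had one within 3 kb of an own TSS. Over all protein-coding genes, here and for the next list, the shares were 62.6% and 51.2%. The promoter peak of Myl12a and Myl12b, with 680.5, is the same peak that was assigned to Myom1. The heavy chains Myh10 and Myh9 scored 1465 and 1342 at their promoters, both above the 700.5 that was the highest of the thick-filament members, and the light chain gene Myl6b scored 726. Of 16 thin-filament and Z-disc genes, which encode the actin side of the sarcomere and its anchor, 15 had a gained peak and 12 had one within 3 kb, Myoz2 being the one with none. Their highest promoter scores were 676.5 at Tpm1 (tropomyosin), 619.5 at Actc1 (cardiac actin) and 599.5 at Tnnt2 (troponin T), in the range of the strong Myl4 and Myom1 peaks. No gene of these lists had a lost peak.

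Markers of the cell types of the heart were counted by the same rule, since shifts in cell makeup could move with the members. Gained peaks were present at 6 of 6 cardiomyocyte marker genes, with 5 of 6 within 3 kb of a TSS. Of these markers, Myl7 is itself a member, and Actn2 and Tnnt2 are also on the thin-filament list. Gained peaks were present at 3 of 6 endothelial and endocardial, 2 of 6 erythroid, 3 of 4 epicardial and 0 of 4 skeletal muscle marker genes. Within 3 kb of a TSS the counts were 1, 1, 3 and 0. Over all protein-coding genes the shares were 62.6% by the full rule and 51.2% within 3 kb of a TSS. The part of cell makeup in the gained peaks at the thick-filament genes was not tested. As the lists leave out peaks shared by the genotypes, the labelled tissue could not be checked from its markers.

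**Figure D4:**
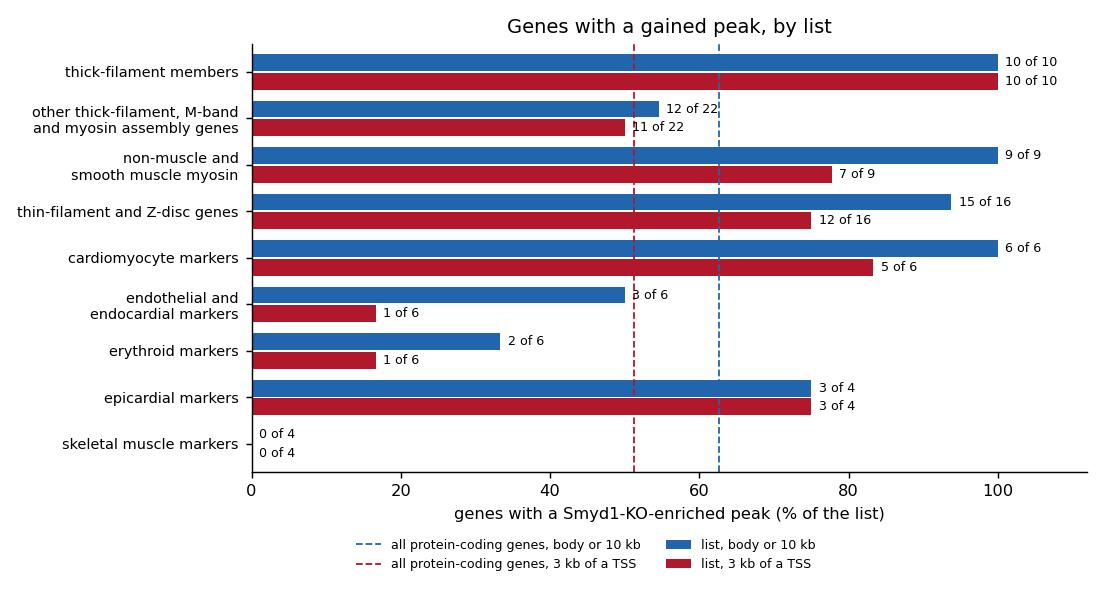
Share of the genes of each list (y axis) with a gained peak, in % (x axis), in the gene body or within 10 kb of a TSS (blue) and within 3 kb of a TSS (red), with the number of genes beside each bar; dashed lines are the shares over all protein-coding genes, 62.6% and 51.2%. The 10 thick-filament members reach the full share on both measures, and the 22 other thick-filament genes lie below both lines.

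Gained peaks lay on either side of the 10-kb limit. Just inside it were the Myh7 peak at 9988 bp with a score of 309, the other distal Myh7 peak at 9383 bp and the Myl3 peak at 9062 bp with 572.5. Just outside were peaks 11740 bp from a Myom1 TSS with a score of 417, 11788 bp from a Myl2 TSS with 237 and 11952 bp from an Unc45b TSS with 53. For the remaining members the next gained peak outside was 13058 bp or farther from an own TSS, up to 23022 bp at Myl4.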

How the data were processed

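ATAC-seq was measured in 4 libraries, 2 per genotype. Per the labels and the study's methods, reads were aligned to mm10 with BWA-MEM, and peaks were called with HOMER 4.10.3 and annotated with ChIP-Seeker 1.20.0. The values deposited by the authors are a signal, the pooled tag level per peak, in 2 lists of differential peaks made from combined libraries. Whether tags were scaled between the genotypes is not given in the sources used here, so scores were never compared between the lists.

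Starts were read as 0-based, as in the BED format, and are printed 1-based. Had the authors exported 1-based starts, each interval would begin 1 bp earlier. Peaks were assigned to GENCODE M21 genes by overlap with the gene body or a distance of at most 10 kb from the nearer peak edge to a TSS of any transcript. The 3-kb and 1-kb counts used the same distance. GC content, CpG ratio and string matches were read from the GRCm38.p6 sequence, with RefSeq starts from a promoter table that held all 10 members. Work was done in Python 3.11.15 with numpy 2.4.6 and pandas 2.3.3, and the assignment rules were tested on simulated data. The members, lists and strings were chosen with earlier results of these data known, and TATAAA was added after the peaks had been seen. All member peaks are named, and of each other list the counts, the 3 genes with the highest promoter score and the genes with no peak, where promoter means within 3 kb of an own TSS. No test was run, since the lists hold 1 pooled value per peak. One neighbouring gene is not reported here. Alternatives are given in the closing section.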

Additional observations from a re-analysis of the deposited data

How the results depend on the processing

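The counts of gained peaks (26), of members with a gained peak (10) and of members with one within 3 kb of an own TSS (10), and the absence of lost peaks, stayed within 1.5 times of these values when only protein-coding transcripts were used, with shorter distances (3 kb for the assignment and 1 kb for the promoter), when the nearest protein-coding TSS had to be the member's, with scores at or above the list median, when the whole peak had to lie inside, when peaks under 1 kb apart were merged, and without peaks over 50% soft-masked. With scores at or above the upper quartile of each list, which by construction keeps few peaks, 6 gained peaks remained, at 5 members, and 4 members had one within 3 kb. Those 4 were Myh6, Myh7, Myl4 and Myom1, the last through the peak that covered a TSS of Myl12a. The share of all protein-coding genes was not computed under this setting, under the nearest-TSS rule or with RefSeq starts. The median score, 281.5, became 579 under that setting, 279 with the shorter distances, with the nearest-TSS rule and with the whole peak inside, and 296.5 with scores at or above the list median and after merging. The alternatives chosen after seeing the data were a 20-kb distance, with 34 gained peaks and no lost peak, and RefSeq starts, with 9 members within 3 kb. No paired analysis was possible because the lists came from the combined libraries of each genotype, and leaving out a replicate was impossible for the same reason. Depth limits could not be given, since no library totals are in the lists.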
